A study of Mus musculus with 4 samples.

Results

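Olfactory receptor (Olfr) genes near open chromatin were examined in mouse intestinal organoids before and after exposure to bone morphogenetic protein 2 (BMP2). The members are the protein-coding RefSeq genes with the symbol Olfr and a number that held, or lay nearest within 50 kb to, the midpoint of a peak called at a p-value of 1e-05 in the 0 h or the 72 h library. They number 69 of the 1106 such genes on chromosomes 1 to 19, X and Y, or 6.24%, where 69.7% of all 21887 protein-coding genes were given a peak. These counts restate how the genes were chosen. Of the 69 genes, 33 were given a peak of the 0 h library and 60 a peak of the 72 h library.

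ATAC-seq, in which the Tn5 transposase cuts and tags open DNA, was run on 30000 cells per library. The organoids were crypt cultures of the jejunum epithelium of C57BL/6J mice, and the number of animals is not given in the sources used. The 0 h organoids stayed in CVENR medium, which holds mEGF and R-spondin together with Noggin, which blocks BMP ligands, CHIR99021, which activates Wnt signalling, and valproic acid, which inhibits histone deacetylases. The 72 h organoids lost CHIR99021, valproic acid and Noggin for 72 h and received BMP2 at 100 ng/mL, so BMP2 and the change of medium cannot be told apart. Of 4 libraries, 1 per time point, those of 24 h and 48 h were not analysed here, and no difference below has a replicate check. The read depth is unknown, since the files give positions without counts or heights. An exact interval on a share covers counting error only. A site open in fewer cells and a site less open in each cell cannot be told apart.

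Olfactory receptors are G protein-coupled receptors of sensory neurons in the nose. Each neuron expresses a single receptor gene, while the rest of the family stays packed in condensed, heterochromatic clusters spread over most chromosomes. The coding sequence of a receptor lies in 1 exon. Upstream exons and the true start of transcription can lie kilobases away. In tissues outside the nose, most clusters are silent, although a few receptors have been described elsewhere, gut endocrine cells included.

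The organoid libraries carried the marks of epithelium. All 5 epithelial markers (Epcam, Cdh1, Vil1, Krt8 and Cdx2) had a peak within 1 kb of a gene end in both libraries. Of 6 olfactory neuron markers, Omp (olfactory marker protein) and Cnga2 (a channel subunit of odor transduction) were given no peak, and 4 had a gene end peak at 0 h and 1 at 72 h. For enteroendocrine markers the count was 1 of 5 at both times, for tuft markers 0 of 4, for goblet markers 0 of 3, and for Paneth markers 0 of 3 at 0 h and 1 at 72 h. Gene end peaks were found at 1 of 3 fibroblast markers at both times and at 0 of 3 immune markers. Of 3 endothelial markers, 1 had such a peak at 0 h and 0 at 72 h. Counted over all peaks given to them, goblet markers went from 1 peak at 0 h to 6 at 72 h, 5 of them at 72 h only. Muc2, the main intestinal mucin, had 0 and 3, Tff3, a trefoil peptide, 0 and 2, and Spdef 1 and 1. Paneth markers had 1 and 2 peaks, none shared. Tuft markers had 2 and 3, immune markers 0 and 1, endothelial markers 2 and 3, and epithelial markers 33 and 34. Counts were lower at 72 h for enteroendocrine markers (3 and 2), fibroblast markers (7 and 6) and olfactory neuron markers (12 and 9). The part of these other cells in the peaks near Olfr genes was not tested.

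Peaks near Olfr genes were more numerous at 72 h. The 0 h library gave these genes 42 peaks and the 72 h library 75, a ratio of 1.79, whereas all genes were given 32997 and 37726, a ratio of 1.14. For peaks of other genes lying over 1 kb outside the gene the ratio was 1.24. Merged where they overlapped, the 117 peaks formed 82 sites, of which 28 had peaks of both libraries, 12 only of the 0 h library and 42 only of the 72 h library. Sites at 72 h only thus made up 51.2% (95% Clopper-Pearson interval 39.9 to 62.4) of Olfr sites, against 26.9% of all sites given to a gene and 35.7% of sites over 1 kb outside other genes. Sites at 0 h only made up 14.6%, against 15.8% and 20.1%. The Olfr counts include sites inside or within 1 kb of the gene, which the backgrounds over 1 kb outside other genes leave out.

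Of the 75 peaks at 72 h, 44 had no 0 h peak overlapping them by at least 1 bp (58.7%, interval 46.7 to 69.9). With a peak counted for every gene within 50 kb, not the nearest alone, the share was 38.2% (91 of 238). With each peak given to the nearest gene alone, the share was 29.0% over all 72 h peaks given to a gene. It was 42.8% over 72 h peaks more than 1 kb outside other genes. No background was computed for the count over every gene within 50 kb. Restricted to the 65 Olfr peaks over 1 kb outside their gene, the share was 55.4% (42.5 to 67.7), and this interval just includes 42.8%. At 0 h, 12 of 42 peaks had no 72 h peak over them (28.6%, 15.7 to 44.6), against 19.7% of all 0 h peaks given to a gene and 29.8% of those outside other genes. The 72 h interval lies above both backgrounds, and the 0 h interval spans both. Among peaks that passed the stricter threshold of 1e-10, 15 of 31 at 72 h were lone (48.4%, 30.2 to 66.9) against 16.9% of all such peaks given to a gene. At 0 h, 4 of 18 were lone (22.2%, 6.41 to 47.6) against 5.94%, so at this threshold both intervals lie above the share of all genes. Against peaks outside other genes, 29.7% at 72 h lies just below the interval and 11.0% at 0 h within it. Restricted to strict Olfr peaks over 1 kb outside their gene, 13 of 28 at 72 h were lone (46.4%, 27.5 to 66.1). This restricted interval includes 29.7%. The lists that chose the genes also set these classes, so the shares are descriptions.

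**Figure D1:**
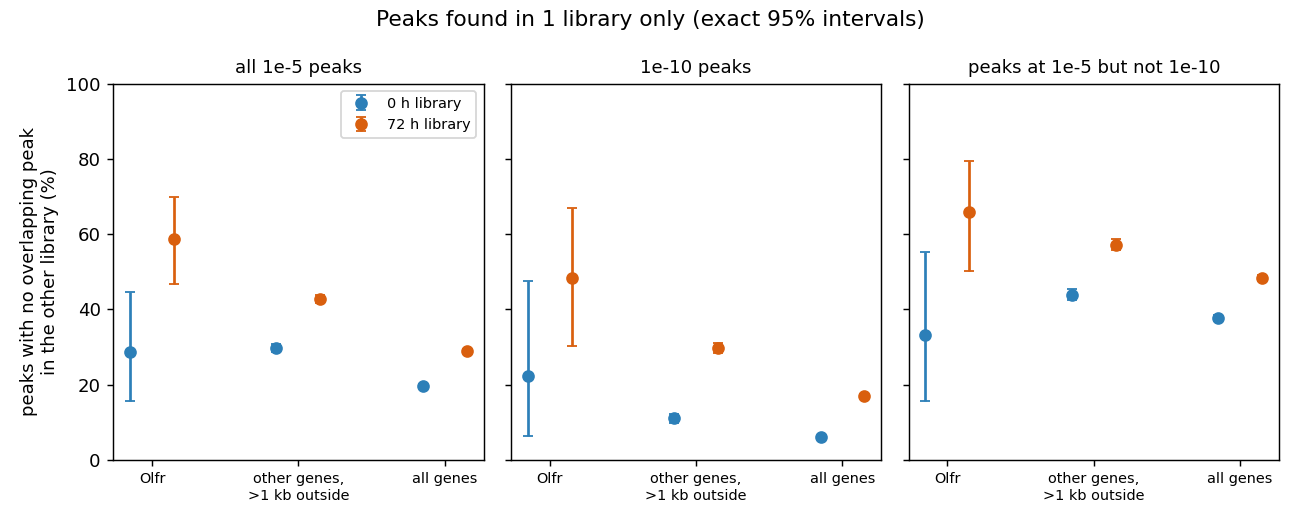
Share of peaks with no overlapping peak in the other library (y axis, %), for peaks given to Olfr genes, peaks over 1 kb outside other genes and all peaks given to a gene (x axis); points are shares and bars exact 95% intervals, blue for 0 h and orange for 72 h. For all 1e-05 peaks (left) the 72 h share is 58.7% at Olfr genes and 29.0% at all genes, and for 1e-10 peaks (middle) it is 48.4% and 16.9%, and the 0 h share 22.2% and 5.94%; peaks that pass 1e-05 but not 1e-10 are on the right.

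The pattern by gene was as uneven. A 72 h-only peak was given to 39 members (56.5%), against 39.9% of the 15263 genes with a peak. A 0 h-only peak was given to 12 (17.4% against 29.7%) and a shared peak to 24 (34.8% against 86.2%). Among the 69 members, 36 were given only 72 h-only peaks, where 6.32% of all genes with a peak had that pattern. A further 9 had only 0 h-only peaks (5.75% of genes with a peak), and 19 had only shared peaks (43.5%). The 5 others mixed classes. Olfr1358 and Olfr94 had 0 h-only and shared peaks, Olfr267 and Olfr323 had 72 h-only and shared peaks, and Olfr1373 had all 3 kinds. Most members had few peaks: 58 had a single site, 9 had 2 and 2 had 3. Against the 6493 genes whose peaks lay at exactly 1 site, the contrast was similar. Of the 58 members with 1 site, 33 were 72 h only (56.9%, 43.2 to 69.8) against 11.4% of such genes, and 16 were shared (27.6%, 16.7 to 40.9) against 76.6%. Neither background of genes is matched for the distance of peaks from the gene. By site, 51.2% of Olfr sites, those inside or within 1 kb of the gene included, and 35.7% of sites over 1 kb outside other genes were at 72 h only.

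At 72 h, strict calls made up a smaller share of Olfr peaks than of all peaks given to a gene. At the stricter threshold of 1e-10, which the choice of genes did not use, 18 of 42 Olfr peaks passed at 0 h (42.9%, 27.7 to 59.0) and 31 of 75 at 72 h (41.3%, 30.1 to 53.3). Over all peaks given to a gene 56.7% and 61.4% passed, and over peaks outside other genes 42.8% and 52.4%. The intervals of both libraries include the share of peaks outside other genes. The 72 h interval lies below the share of all genes, and the 0 h interval includes it. By gene, 34 of 69 members had a 1e-10 peak (49.3%), against 86.3% of genes with a peak. That background is not matched for the number of peaks per gene, and 58 members had a single site. Of the 72 h-only peaks 15 of 44 passed (34.1%, 20.5 to 49.9), close to the 35.8% of all 72 h-only peaks. Of the 12 0 h-only peaks 4 passed (33.3%, 9.92 to 65.1), and 17.1% of all 0 h-only peaks did.

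The authors' lists of enriched regions held 15 of the 75 peaks at 72 h (20.0%, 11.6 to 30.8) and 4 of the 42 at 0 h (9.52%, 2.66 to 22.6). Over all peaks given to a gene the shares were 10.4% and 3.38%, and over peaks outside other genes 15.6% and 4.71%. At Olfr genes these regions were the same 15 and 4 peaks that passed 1e-10 and lay in 1 library only, so the lists add no further measure. By gene, 14 members had a 72 h-enriched region (20.3%, against 18.6% of genes with a peak) and 4 a 0 h-enriched one (5.80%, against 6.67%). Per gene, the members were thus near the background in both lists, but that background is not matched for peaks per gene. Members had 42 peaks at 0 h and 75 at 72 h over 69 genes. The 15263 genes with a peak had 32997 and 37726. The 4 members with a 0 h-enriched region were Olfr1358, Olfr1373, Olfr31 and Olfr670. At 72 h they were Olfr16, Olfr414, Olfr763, Olfr780, Olfr827, Olfr332, Olfr165, Olfr166, Olfr168, Olfr102, Olfr459, Olfr653, Olfr697 and Olfr535, with 2 overlapping regions at Olfr653 and 1 at each other gene.

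Receptor genes were rarely open at their annotated starts. Of 940 Olfr genes with a start-site window in RefSeq (GRCm38.p6; 250 bases before to 50 after the start), none was overlapped by a 0 h peak and 1, Olfr1423, by a 72 h peak. Of 17492 protein-coding genes with such a window, 52.0% were overlapped at 0 h and 50.2% at 72 h. In 685 of the 940 windows (72.9%) the annotated start is an ATG, so most of these gene models begin at the coding sequence and the window is not the true promoter. The windows of 4 members are shown, because their peak midpoints lay closest to the annotated start among members whose strand RefSeq gives. Olfr658, without a strand in the table, has a peak at a gene end that may be its start. Each is written 5′ to 3′ on the strand of the gene. Capitals in Olfr1423 are the bases under its 72 h peak, and in the others the matches to a TATA box (TATAAA) or a GATA motif (AGATAA) on either strand.
Olfr1423, chr19:12036691-12036990, minus strand: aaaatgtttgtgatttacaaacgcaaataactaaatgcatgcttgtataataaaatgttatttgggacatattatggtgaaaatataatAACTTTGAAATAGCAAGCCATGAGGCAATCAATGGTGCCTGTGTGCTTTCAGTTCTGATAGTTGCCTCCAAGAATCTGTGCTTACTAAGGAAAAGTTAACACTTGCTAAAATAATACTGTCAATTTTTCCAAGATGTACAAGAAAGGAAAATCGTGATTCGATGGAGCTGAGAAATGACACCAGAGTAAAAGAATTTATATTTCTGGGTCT
Olfr763, chr10:129011037-129011336, plus strand: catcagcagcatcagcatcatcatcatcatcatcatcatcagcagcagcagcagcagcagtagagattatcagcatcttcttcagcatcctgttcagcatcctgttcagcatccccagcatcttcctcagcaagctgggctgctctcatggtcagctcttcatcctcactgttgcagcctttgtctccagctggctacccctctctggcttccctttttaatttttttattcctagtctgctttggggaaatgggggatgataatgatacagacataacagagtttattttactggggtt
Olfr94, chr17:37197917-37198216, minus strand: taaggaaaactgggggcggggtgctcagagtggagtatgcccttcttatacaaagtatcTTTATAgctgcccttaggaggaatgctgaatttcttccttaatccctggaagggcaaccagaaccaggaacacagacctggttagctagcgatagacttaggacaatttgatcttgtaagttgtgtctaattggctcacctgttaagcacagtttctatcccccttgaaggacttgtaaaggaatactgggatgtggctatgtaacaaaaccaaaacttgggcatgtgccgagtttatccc
Olfr1160, chr2:88006727-88007026, minus strand: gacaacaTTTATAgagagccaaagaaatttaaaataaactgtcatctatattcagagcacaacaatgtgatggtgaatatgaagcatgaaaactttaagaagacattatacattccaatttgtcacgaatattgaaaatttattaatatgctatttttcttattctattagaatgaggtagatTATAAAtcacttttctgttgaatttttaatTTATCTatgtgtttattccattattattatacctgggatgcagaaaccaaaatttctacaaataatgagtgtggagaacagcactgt

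The 72 h-only Olfr1423 peak at chr19:12036301-12036901 covered 211 of the 300 bases and had its midpoint 139 bases into the gene. It was called at 1e-05 and not at 1e-10, and it was the single Olfr peak in a cluster of 63 genes on chromosome 19. The Olfr763 window, which holds runs of CAG and CAT repeats, had 46.7% G and C and none of the 6 motifs searched. Its peak midpoint lay 387 bases into the gene, at chr10:129011374-129011974. The peak in Olfr94 was found at 0 h only, at chr17:37197066-37197666, 600 bases into the gene. At Olfr1160 the 72 h-only peak, chr2:88007397-88007997, had its midpoint 921 bases upstream of the start, and the window had 27.3% G and C. None of these 4 peaks passed 1e-10.

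The starts of members tended to hold more G and C than those of the other receptor genes, with overlap. Their median was 39.7% (quartiles 34.5 and 44.8, 59 members with a window), against 35% (31.7 and 39.3) for the 881 Olfr genes with no peak. Over all protein-coding genes it was 56.3%. By pattern, the median was 44.7% for 7 members with 0 h-only peaks, 41.0% for 16 with shared peaks and 37.0% for 31 with 72 h-only peaks, and the ranges overlapped widely (31.7 to 56.3, 27.3 to 50.0 and 26.3 to 56.0). CpG pairs were scarce in both sets, with a median of 1.00 per window and none in 30.5% of members and 33.7% of other Olfr genes, where all genes had a median of 13.0. Whether base composition affected peak calling was not tested.

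**Figure D2:**
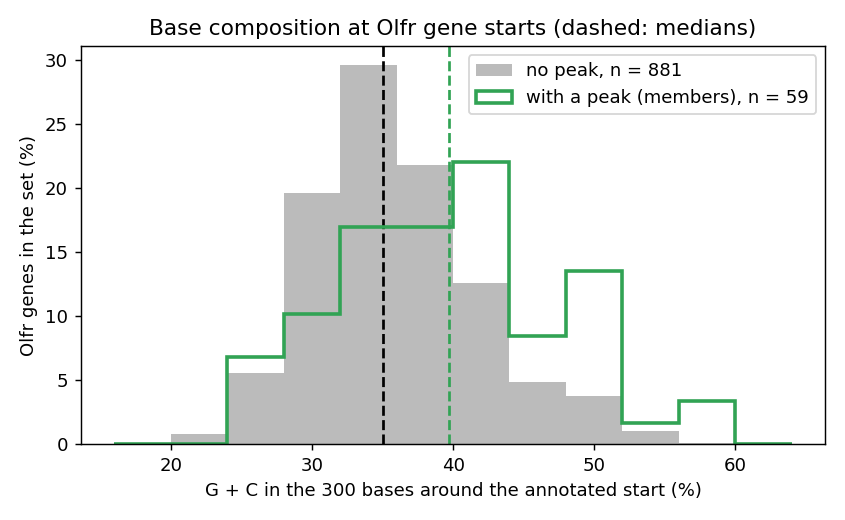
Percent of Olfr genes (y axis) by the G and C content of the 300 bases around the annotated start (x axis, %), in bins of equal width; grey, 881 genes with no peak; green line, 59 members; dashed lines, medians. The members' median of 39.7% lies to the right of the 35% of the other genes, and the 2 distributions overlap over most of their range.

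Motifs were searched in the windows on both strands. The TATA box TATAAA was in 33.9% of member windows, in 41.8% of other Olfr windows and in 13.3% of all protein-coding windows. The GATA motif AGATAA, which intestinal GATA factors bind, was in 25.4%, 28.1% and 9.96%. A homeodomain core, TAATTA, of the kind bound by Lhx2 in olfactory neurons, was in 11.9%, 19.2% and 4.68%. The AP-1 motif TGANTCA was in 2 of 59 members (3.39%), in 14.3% of other Olfr windows and in 7.08% of all. The O/E (Ebf) palindrome was in 0 of 59 members and 0.568% of other Olfr windows, and the HNF4 motif CAAAGTCCA in 0 and 0.227%, against 0.943% and 0.417% of all protein-coding windows. Most of these windows were not under a peak, so the counts describe the genes and not the open sites.

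Peaks lay kilobases from the receptors. The median distance from a 72 h-only peak to its Olfr gene was 5.76 kb (quartiles 1.94 and 9.48), from shared peaks 7.46 kb at 0 h and 7.31 kb at 72 h, and from 0 h-only peaks 13.6 kb (9.67 and 26.7). Within 10 kb lay 34 of 44 72 h-only peaks and 4 of 12 0 h-only peaks. Counting only peaks outside the gene, the Olfr medians were 5.80, 16.2 and 7.60 kb for 72 h-only, 0 h-only and shared 0 h peaks. For peaks outside other genes, here including those within 1 kb of the gene, the order differed, with 10.9, 8.73 and 1.09 kb. Inside the gene lay 2 of 42 Olfr peaks at 0 h and 3 of 75 at 72 h, or 4.76% and 4.00%, against 59.9% and 60.4% of all peaks given to a gene. Olfr genes are short, with a median model of 950 bp, and the part of that in the share was not tested. Of the 68 sites outside genes whose strand RefSeq gives, 40 lay upstream (median 9.57 kb) and 28 downstream (5.92 kb).

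**Figure D3:**
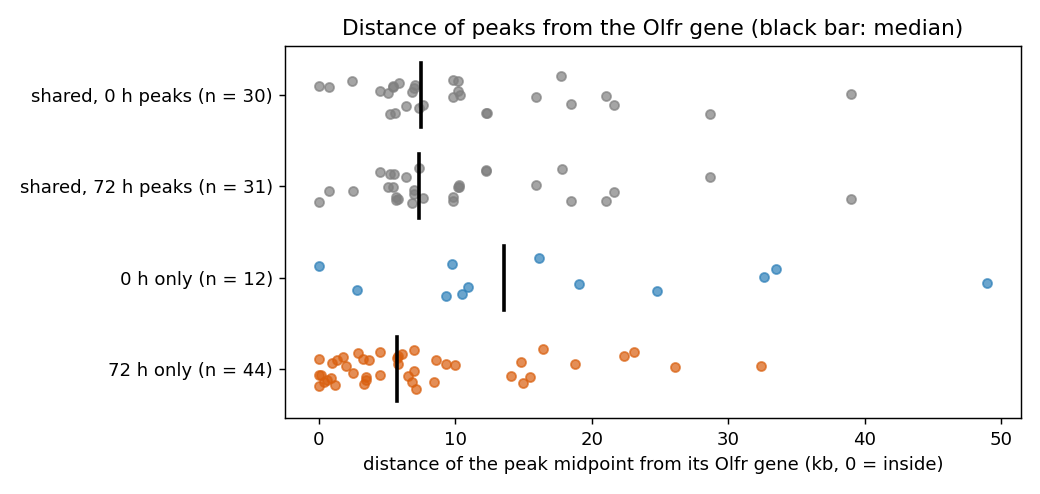
Distance of each peak midpoint from its Olfr gene (x axis, kb, 0 inside the gene) by class of peak (rows); each point is 1 peak, spread vertically for display, and the black bars are medians. The 72 h-only peaks have the lowest median, 5.76 kb, and the 0 h-only peaks the highest, 13.6 kb, with overlap between all classes.

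A peak inside the gene or within 1 kb of its end was given to 10 members. Within 1 kb of a gene end, inside or out, lay 7.14% of the Olfr peaks at 0 h and 13.3% at 72 h, against 42.3% and 36.2% of all peaks given to a gene. Besides Olfr1423, Olfr763, Olfr94 and Olfr1160, Olfr1396 had a 72 h-only peak centred 4 bp inside its end, chr11:49112481-49113081. Olfr658 had a peak in both libraries at its end, the 0 h midpoint 17 bp inside and the 72 h midpoint 32 bp outside, and passed 1e-10 at 72 h and not at 0 h. Downstream of the gene lay 72 h-only peaks of Olfr267 (121 bp away), Olfr653 (349 and 925 bp) and Olfr1388 (578 bp). Olfr1373 had a shared peak 709 bp downstream at 0 h and 705 bp at 72 h. Of these 10 genes, 7 had only 72 h-only peaks that close, Olfr94 had a 0 h-only peak, and Olfr658 and Olfr1373 had shared ones. The 2 Olfr653 peaks, chr7:104580718-104581318 and chr7:104581294-104581894, were the only 72 h-only peaks among them to pass 1e-10.

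The Olfr genes fell into 50 clusters, defined by gaps of at most 1 Mb between neighbours, and 28 clusters on 16 chromosomes held a member. In 9 clusters the Olfr genes were given peaks at 72 h and none at 0 h, and in 3 at 0 h and none at 72 h. Peaks of other genes lie in some of these spans at both times. More 72 h-only than 0 h-only peaks were found in 16 clusters, and the reverse in 5. The 30 clusters of 5 or more genes span 33.9 Mb, other genes included, and held 202 peaks at 0 h and 245 at 72 h. That is 5.96 and 7.23 peaks per Mb, against 13.2 and 15.2 over all chromosomes. Members made up 0% to 29.2% of the genes in the other clusters of that size and 50.0% in that of Olfr164 to Olfr171.

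**Figure D4:**
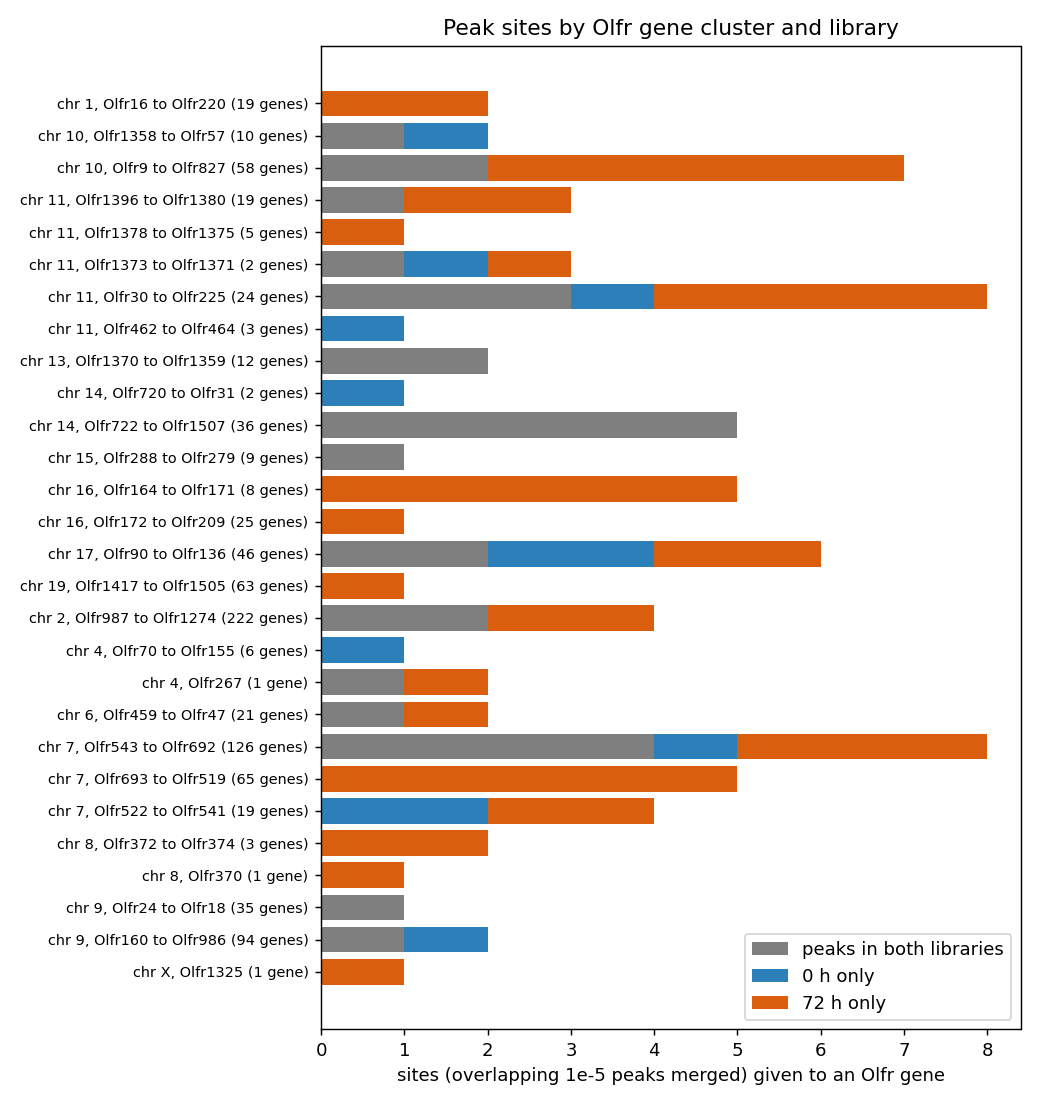
Number of sites (x axis; overlapping 1e-05 peaks merged) given to Olfr genes in each of the 28 clusters with a member (y axis; chromosome, first and last gene, number of Olfr genes), split by library. The clusters of Olfr164 to Olfr171 and Olfr693 to Olfr519 hold 5 sites each, all at 72 h only, and the cluster of Olfr722 to Olfr1507 holds 5 sites, all in both libraries.

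The chromosome 16 cluster of Olfr164 to Olfr171 had peaks at 72 h only. Its 8 genes span 339 kb. No 0 h peak lay anywhere in the span, and 5 lay there at 72 h, given to Olfr165 (2), Olfr166, Olfr168 and Olfr169. The peaks of Olfr166 and Olfr168 and 1 of Olfr165 passed 1e-10. The nearest gene that is not Olfr was Lamp3, a lysosomal membrane protein gene, 104 to 208 kb away. On the same chromosome, Olfr172 had 1 72 h-only peak, 8.62 kb downstream and 17.3 kb from Cldnd1.

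On chromosome 7, the cluster of Olfr693 to Olfr519 (65 genes, 2.22 Mb) also had peaks at Olfr genes at 72 h only. They were given to Olfr697, Olfr2, Olfr713 (2) and Olfr506. Olfr2 encodes the I7 receptor, which responds to the aldehyde octanal, and its peak lay 1.78 kb away. That of Olfr697, 6.97 kb downstream, passed 1e-10. The span as a whole was not closed at 0 h, with 10 peaks there against 15 at 72 h.

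The largest chromosome 7 cluster, Olfr543 to Olfr692, holds 126 genes over 2.89 Mb, among them the class I receptors that flank the beta-globin locus. It had 7 members and 8 sites, 4 of them shared. Olfr545 had 2 shared sites 12.2 and 18.5 kb upstream, and Olfr649 a shared site 9.84 kb upstream that passed 1e-10 in both libraries. The other shared site was that of Olfr658. At 72 h only were Olfr584 (3.28 kb), Olfr622 (4.45 kb) and Olfr653, and at 0 h only Olfr670 (9.34 kb, passing 1e-10). Hbb-bt, a beta-globin gene, lay 168 kb from the Olfr622 peak. A further cluster on the chromosome, Olfr522 to Olfr541, had 4 members with 1 peak each: Olfr523 (9.78 kb) and Olfr536 (32.6 kb) at 0 h, Olfr533 (23.1 kb) and Olfr535 (1.35 kb) at 72 h.

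The second cluster of chromosome 10, Olfr9 to Olfr827, spans 1.22 Mb with 58 genes. It was given 2 peaks at 0 h and 8 at 72 h. Those of Olfr9 (12.2 kb upstream, 16.7 kb from Mettl7b) and Olfr806 (2.46 kb) were shared. The 6 72 h-only peaks belonged to Olfr763 (3), Olfr780, Olfr782 and Olfr827, and 3 of them passed 1e-10. Olfr780 and Olfr782 were the farthest here from another kind of gene, 352 and 392 kb from Mettl7b. The Olfr827 peak lay 14.1 kb from the gene and 42.9 kb from Neurod4, a neurogenic transcription factor gene. In the first cluster, Olfr1358 had a 0 h-only and a shared site 16.2 and 10.3 kb upstream, 17.1 and 22.9 kb from Pdxk (pyridoxal kinase), and all 3 of its peaks passed 1e-10.

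On chromosome 11, members came from 5 clusters. The Olfr30 to Olfr225 cluster gave 7 of its 24 genes: Olfr332, Olfr324 and Olfr317 with a 72 h-only peak, Olfr323 with a 72 h-only and a shared site, Olfr316 and Olfr225 with a shared site, and Olfr223 with a 0 h-only peak. Of their 11 peaks, those of Olfr332 and of Olfr316 at 72 h passed 1e-10. Its span also holds many other genes, with 45 peaks in each library. The Olfr1396 to Olfr1380 cluster had 72 h-only peaks at Olfr1396 and Olfr1388 and a shared one at Olfr56, 5.55 kb upstream at 0 h. Ifi47, an interferon-inducible GTPase gene, lay 15.8 kb from the Olfr1396 peak. Olfr1378 had a 72 h-only peak 5.72 kb upstream. Olfr1373 had, besides its shared site, a 72 h-only peak 14.9 kb and a 0 h-only peak 19 kb upstream, the latter passing 1e-10. Olfr464 had a 0 h-only peak 24.8 kb upstream.

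On chromosome 14, every peak given to an Olfr gene of the Olfr722 to Olfr1507 cluster was shared. Its 3 members, Olfr726, Olfr741 and Olfr750, had 7 peaks at 0 h and 8 at 72 h. Olfr750 held the most peaks of any member, 4 at 0 h and 5 at 72 h in 3 sites. The sites lay 5.08 to 9.81 kb from the gene and 6.67 to 9.83 kb from Rnase12 or Ang, genes of the ribonuclease A family. At 72 h the third site lay 9805 bp from the receptor and 9830 bp from Ang, nearly level. The first lay 6403 bp from the receptor and 6666 bp from Rnase12. Olfr741 had a shared site 6.99 kb away at 72 h that passed 1e-10 in both libraries, 102 kb from Tlr11. Olfr726 had 2 overlapping peaks in each library 21.1 and 21.6 kb downstream, 279 kb from the next other gene, Armh4. In the same chromosome's Olfr720 to Olfr31 cluster, Olfr31 had a 0 h-only peak 33.5 kb upstream that passed 1e-10.

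In the chromosome 17 cluster, Olfr90 to Olfr136, which borders genes of the major histocompatibility complex, 5 of 46 genes were members. Olfr94 had, besides its 0 h-only peak, a shared site 5.90 kb upstream at 0 h and 5.80 kb at 72 h. Ubd, the gene of an inducible ubiquitin-like protein, lay 1.26 kb from the 0 h-only peak. Olfr101 and Olfr102 had 72 h-only peaks 1.99 and 2.87 kb downstream, 23.0 and 36.1 kb from H2-M3, a nonclassical class I antigen-presenting gene. Olfr107 had a shared site that passed 1e-10 at 72 h and not at 0 h. Olfr761 had a 0 h-only peak 49.0 kb away, the farthest of any member and just inside the 50 kb limit. Just outside it was Olfr1402 on chromosome 3, with a shared peak 51.3 kb away at 72 h and 51.4 kb at 0 h.

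The largest cluster, Olfr987 to Olfr1274 on chromosome 2, was nearly empty. Its 222 genes span 5.07 Mb, and 2 peaks at 0 h and 4 at 72 h lay in that span. The shared sites were at Olfr1023 (7.60 kb) and Olfr1274 (5.47 kb, passing 1e-10 in both libraries), and the 72 h-only peaks at Olfr1135 (9.32 kb upstream) and Olfr1160. On chromosome 9, members were 1 of 35 genes in the Olfr24 to Olfr18 cluster and 2 of 94 in the Olfr160 to Olfr986 cluster: Olfr58 and Olfr945 with shared sites 10.2 and 28.7 kb upstream, and Olfr878 with a 0 h-only peak 10.5 kb downstream. None passed 1e-10. No peak lay in the spans of several sizeable clusters: Olfr1275 to Olfr1318 (37 genes) and Olfr338 to Olfr368 (27 genes) on chromosome 2, Olfr20 to Olfr412 (30 genes) on chromosome 11 and Olfr310 to Olfr292 (15 genes) on chromosome 7.

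The other members were spread thinly. At 72 h only were Olfr16 (32.4 kb downstream) and Olfr414 (2.53 kb downstream) on chromosome 1, both passing 1e-10, Olfr459 on chromosome 6 (26.1 kb, passing 1e-10), Olfr372, Olfr373 and Olfr370 on chromosome 8 (3.43, 3.46 and 6.09 kb upstream) and Olfr1325 on chromosome X (18.8 kb downstream). Olfr16 encodes MOR23, a receptor for the floral odorant lyral that has also been described in sperm. At 0 h only was Olfr156 on chromosome 4, 2.77 kb upstream. Shared sites were found at Olfr288 on chromosome 15 (4.45 kb downstream), Olfr455 on chromosome 6 (5.19 kb upstream), Olfr1368 on chromosome 13 (15.9 and 17.8 kb upstream) and Olfr267 (39.0 kb downstream). Olfr288 lay 11.4 kb from Ccdc184, and Olfr1368 18.6 kb from Trim27, at the second site.

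Shared sites lay nearer to other genes than 72 h-only sites did. The median distance to the nearest gene that is not Olfr was 33.1 kb for 28 shared sites (6.68 to 376 kb), 48.4 kb for 12 0 h-only sites (1.26 to 414 kb) and 70.5 kb for 42 72 h-only sites (8.62 to 497 kb). Within 20 kb of such a gene lay 10 of 28 shared sites (35.7%) and 6 of 42 72 h-only sites (14.3%). The ranges overlapped widely. Over 100 kb from any other gene lay 26 of the 82 sites, 16 of them at 72 h only, 7 shared and 3 at 0 h only. Position within the cluster did not separate the classes: 22 of 28 shared sites (78.6%, 59.0 to 91.7), 10 of 12 0 h-only sites (83.3%, 51.6 to 97.9) and 34 of 42 72 h-only sites (81.0%, 65.9 to 91.4) lay between the first and last Olfr gene of their cluster.

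**Figure D5:**
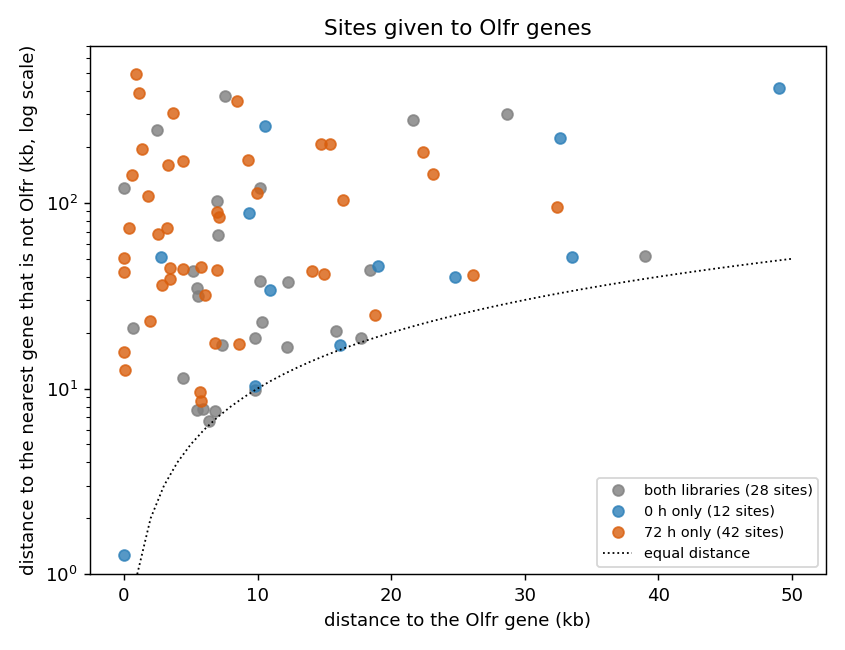
Distance of each of the 82 sites to its Olfr gene (x axis, kb) and to the nearest gene that is not Olfr (y axis, kb, log scale); grey, peaks in both libraries; blue, 0 h only; orange, 72 h only; dotted line, equal distances. Points near the line, such as the shared sites of Olfr750, are almost as close to another gene, and 26 sites lie over 100 kb from any.

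At the shared sites both libraries marked the same position. The nearest 0 h and 72 h midpoints were a median of 13.0 bp apart, at most 94 bp, and within 20 bp at 20 of 28 sites. At 11 of the 28 sites a peak passed 1e-10 in both libraries, at 5 only at 72 h, at 2 only at 0 h and at 10 in neither. Over all 22250 shared sites given to a gene the shares were 64.4%, 13.6%, 8.43% and 13.6%. Those strict only at 72 h were at Olfr56, Olfr316, Olfr107, Olfr455 and Olfr658, and those strict only at 0 h at Olfr9 and at the second site of Olfr1368.

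None of 3 further receptors described outside the nose was a member. Olfr78 and Olfr558 respond to short-chain fatty acids and have been described in gut endocrine cells, and Olfr544 has been described in metabolic tissues. The peak nearest to Olfr558 was a shared one 15.0 kb away, and for Olfr78 the same peak lay 53.4 kb away; it belongs to Trim68 by distance. The peak nearest to Olfr544, 18.7 kb away, was the shared one given to Olfr545.

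Of 15 olfactory signalling genes 11 had a peak (73.3%), near the 69.7% of all protein-coding genes, among them Gnal (the olfactory G protein alpha subunit, 6 peaks at 0 h and 5 at 72 h) and Adcy3 (the adenylyl cyclase of odor transduction, 1 and 2, none shared). Cnga2, Omp, Ano2 (a chloride channel) and Gfy had none. Of 12 genes of receptor choice, which share Adcy3 with that list, all had a peak. Ebf1, a factor of receptor gene promoters, had 3 at 0 h and none at 72 h, Emx2 had 2 and none, and Lhx2 and Ldb1, whose products join receptor enhancers, had shared peaks only. Of 6 trafficking genes, Rtp3, Reep1 and Reep6 had a peak, and Rtp1 and Rtp2, chaperones of receptors in the nose, had none. For signalling, 7 of 26 peaks at 0 h and 5 of 24 at 72 h were lone (26.9% and 20.8%), for choice 9 of 30 at each time (30.0%), and for trafficking 1 of 6 at each time. Over all peaks given to a gene the shares were 19.7% and 29.0%.

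Other chemoreceptor families were given peaks less often than all protein-coding genes (69.7%). All but Vmn1r were given them more often than Olfr genes (6.24%). Peaks were given to 13 of 230 Vmn1r genes (5.65%) and 16 of 123 Vmn2r genes (13.0%), pheromone receptors of the vomeronasal organ, to 5 of 35 Tas2r genes (bitter taste receptors) and to 3 of 15 Taar genes (trace amine receptors). At Vmn1r genes 8 of 12 peaks were lone in each library. At Vmn2r genes 2 of 18 0 h peaks and 7 of 24 72 h peaks were lone, and at Tas2r genes 0 of 2 and 5 of 7. Peaks were also given to 9 of 21 Ms4a genes (42.9%), 2 of 7 Fpr genes (28.6%) and 1 of 3 Tas1r genes (33.3%). Lone peaks at 0 h and 72 h were 0 of 2 and 3 of 5 at Taar genes, and 3 of 11 and 7 of 15 at Ms4a genes. At Fpr genes they were 0 of 1 and 1 of 2, and at Tas1r genes 0 of 1 at each time. The differences between families were not tested.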

How the data were processed

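ATAC-seq peak lists of the 0 h and 72 h libraries (1 each) were used. Reads were handled with MACS2 (version 2.2.7.1), Bowtie2 (version 2.4.1), cutadapt (version 1.9.1), Picard (version 2.18.27), SAMtools (version 1.3.1), bedtools (version 2.26.0) and deepTools (version 3.5.4) for build mm10, according to the submitters' processing notes. Settings, any shift for the Tn5 cut and duplicate removal are not given in these sources. The authors deposited positions called per library at p-value thresholds of 1e-05 and 1e-10, nearly all 601 bp wide, and lists of enriched regions, with no score or count.

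Peak midpoints were given to the protein-coding gene holding them, or the nearest within 50 kb, in a RefSeq table of GRCm38.p6, the assembly of mm10. Strand came from RefSeq start windows, matched for 59 of 69 members. Numbers skip in the other library's list around 4 lone peaks (Olfr1358, Olfr670, Olfr372 and Olfr373), where a missing peak and an absent one cannot be told apart. The members, lists, motifs and tests were chosen with earlier results of these data known. Named with values were members with a peak inside or within 1 kb of the gene, those with 3 or more peaks, the 12 nearest with a 1e-10 peak or enriched region, and those at the 50 kb limit. Other members are named with their cluster, and their distances were added after their values were seen. Assignment and overlap were tested on simulated peaks. Software was pandas (version 2.3.3), SciPy (version 1.17.1), numpy (version 2.4.6) and matplotlib (version 3.10.9) under Python 3.11.15. No test between the libraries was run, since each time point is 1 library.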

Additional observations from a re-analysis of the deposited data

How the results depend on the processing

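Of the values recomputed under other settings, 56 stayed within the interval, the spread or 1.5 times of the reported value and 10 did not, as follows. The number of members fell from 69 to 34 with 1e-10 peaks only and rose to 273 with every gene within 50 kb. With every gene within 50 kb, the share of 72 h peaks found at 72 h only was 38.2% (238 peaks), the share of 72 h peaks passing 1e-10 was 59.2% and the median distance to the gene end was 19.9 kb, not 7 kb. Such peaks include those nearer to other genes. With pseudogenes and RNA genes as candidates, the 72 h-only share was 72.5% (37 of 51 peaks). That setting left 47 members, within 1.5 times of 69, with 51 peaks at 72 h, not 75, and 19 at 0 h, not 42. The other peaks lay in or nearer to a pseudogene or RNA gene. Within 10 kb, the numbers of Vmn1r, Vmn2r, Tas2r and Fpr genes with a peak were 5, 8, 1 and 1. The 72 h-only share ran from 48.4% (1e-10 peaks) to 64.5% (1e-10 in both libraries) under the other planned settings, and under settings chosen after seeing the data it was 60.0% by site and 55.7% to 65.7% with 1 cluster left out; 65.7% is without Olfr722 to Olfr1507. The unknown depth limits every absence of a peak, and 1 library per time point leaves no replicate spread. No paired analysis was possible because each time point is 1 library.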
